A study of Mus musculus with 3 samples.

Results

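Genes that stood apart from a young mouse brain section in both of a pair of old sections were collected from 3 Visium libraries, which count RNA molecules on an array of barcoded spots laid under a slice of tissue. Counts were summed over the spots with at least 3000 unique molecular identifiers (UMIs, 1 per captured RNA molecule) and expressed as CPM, which scales every section to the same total. A gene was taken when both old sections lay on the same side of the young one, when the smaller of the 2 log2 ratios reached 1.3-fold, and when that ratio was at least as large as the log2 ratio between the old sections. Among 9013 genes averaging 10 CPM or more, 114 met this rule (1.26%), 61 of them higher (0.677%) and 53 lower (0.588%) in the old sections. The measured values themselves chose these genes, so their size and direction are given as a description and no test was made.

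All 3 sections came from fresh frozen C57BL/6J brain cut at 10 µm, with 1 section in each group. Y-Ctrl and O-Ctrl carry the treatment label Control, and O-Ex carries the label Exercise. Y and O were read as young and old because the series concerns aging, while the sources used here give no ages, sex, number of animals or exercise regime. O-Ctrl and O-Ex were both set against the same Y-Ctrl section, so a value peculiar to that section enters both ratios and cannot be told apart from age. The ratio between O-Ex and O-Ctrl holds the exercise label together with every difference between those sections.

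Complement component C1q is made in the brain by microglia and starts the classical complement cascade, in which C4 is the next protein to be cleaved. Astrocytes that respond to injury or inflammation make more of the filament proteins GFAP and vimentin and of the protease inhibitor Serpina3n. Microglia around damaged myelin or protein deposits switch on a set of genes for lipid handling and lysosomal digestion that includes Trem2, Tyrobp and Apoe. Immediate early genes such as Arc and Fos are transcribed within minutes of neuronal firing and their RNA is short-lived.

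The spots used held between 97.5% and 98.1% of the UMIs of each library. They numbered 3409, 3498 and 3332, in the order Y-Ctrl, O-Ctrl and O-Ex, with medians of 15718, 14900 and 13685 UMIs. Mitochondrially encoded RNA made up 19.7%, 19.7% and 17.8% of their UMIs. Brain markers were present in every section, with general astrocyte genes summing to 3459, 3754 and 3553 CPM. Choroid plexus genes summed to 4732, 5685 and 14357 CPM and haemoglobin-type genes to 1134, 1100 and 2040 CPM, so O-Ex held far more of both. Xist, transcribed from the inactive X chromosome of females, was at 18.6, 24.1 and 40.4 CPM, while 4 Y-linked genes together stayed at or under 0.0327 CPM in each section. The sections also covered unequal parts of the brain, as the regional counts further on show. The plot of the shared difference against the spread shows the setting in which the 114 genes were picked.

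**Figure D1:**
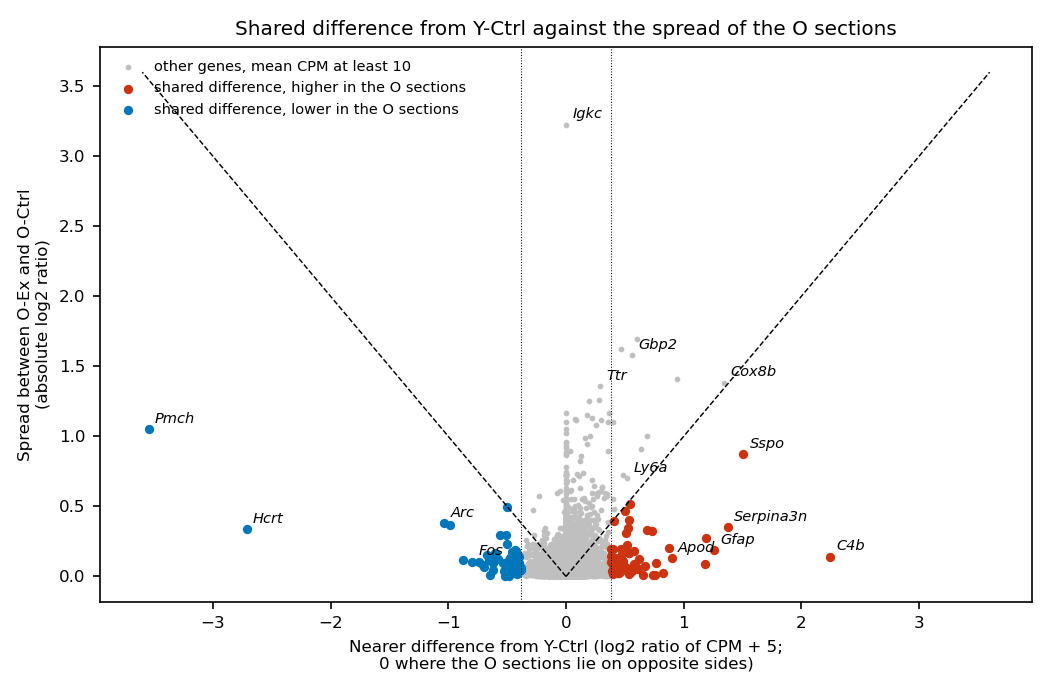
Smaller of both log2 ratios to Y-Ctrl (horizontal axis, on CPM plus 5, set to 0 where the O sections lie on opposite sides) against the absolute log2 ratio of O-Ex to O-Ctrl (vertical axis) for 9013 genes, 1 point each. Dotted lines mark 1.3-fold and dashed lines mark equality of the axes, and the 61 higher (red) and 53 lower (blue) genes lie outside the former and below the latter.

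Both old sections lay above Y-Ctrl for 38.2% of the genes and below it for 28.9%, in all 67.1% on the same side, the shares against which one-sided counts in the lists below are to be read. Nothing is read from the share itself, since the common Y-Ctrl section places genes on the same side without any difference of age. The median absolute log2 ratio was 0.07 for O-Ctrl over Y-Ctrl, 0.10 for O-Ex over Y-Ctrl and 0.09 for O-Ex over O-Ctrl. At least 1.3-fold higher than Y-Ctrl were 94 genes in O-Ctrl (1.04%) and 333 in O-Ex (3.69%), and 73 (0.81%) and 98 (1.09%) were lower by that much. Between the old sections 196 genes (2.17%) reached that size, 172 higher (1.91%) and 24 lower (0.266%) in O-Ex. Old sections closer to each other than to Y-Ctrl were not particular to the chosen genes, since without a fold limit this held for 1410 genes on the higher and 1304 on the lower side. Of the 114 genes, 20 higher (0.222%) and 17 lower (0.189%) reached 1.5-fold in both old sections. The 95% Poisson interval of Y-Ctrl was clear of both old intervals for all 114, though those intervals cover counting error alone and say nothing of how mice differ. The rule had chosen these genes by a gap in the same counts, so clear intervals follow largely from that choice and add no support.

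Complement genes gave the widest gap among the higher genes. C4b, which encodes complement C4 (chr17:34728380-34743882, minus strand, mm10), was at 15.2 CPM in Y-Ctrl (95% Poisson interval 14.2 to 16.2), 90.8 in O-Ctrl (88.4 to 93.3) and 101 in O-Ex (98.1 to 104). Adding 5 CPM to each value, the old sections stood 4.75-fold and 5.24-fold above the young one, and they differed little from each other. C4b has a near-identical neighbour, C4a, and reads that fit both could be split or lost in counting, as could those of Lyz2 and Serpina3n, which have close relatives. The 3 chains of C1q, encoded side by side on chromosome 4, were higher together. C1qa was at 68.5, 119 and 128 CPM in young, old control and old exercise sections, the order used for every set of 3 values from here on. C1qb was at 73.3, 115 and 126 CPM and C1qc at 63.2, 93.9 and 95.001. In all, 4 of the 7 complement genes measured were among the 61, none was among the 53, and the median log2 ratio of the list was 0.54 in O-Ctrl and 0.55 in O-Ex, against -0.01 and 0.05 over all genes. A section mixes cell types, so more cells of a type and more RNA per cell cannot be told apart here or below.

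Reactive astrocyte genes came next, with 4 of the 5 measured among the higher genes and medians of 0.53 and 0.96. Serpina3n, a secreted inhibitor of serine proteases, was at 10.4, 34.9 and 46.1 CPM, with log2 ratios of 1.38 and 1.73. Gfap, the main intermediate filament of astrocytes, was at 50.6, 128 and 146 CPM, with ratios of 1.26 and 1.44. Vim encodes vimentin, also a filament protein, and was at 41.3, 60.3 and 85.3 CPM, with old sections further apart from each other than for Gfap. Tspo, an outer mitochondrial membrane protein abundant in glia, was at 11.4, 18.6 and 25.1 CPM. All 4 were highest in O-Ex. The 14 genes that mark astrocytes in general, among them Aqp4 and Slc1a2, had medians of 0.10 and 0.12 and a single member among the 61. That member was Agt, the precursor of angiotensin, at 65.1, 90.4 and 92.2 CPM.

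Microglial genes of a responsive state were higher. Of 13 measured genes of the disease-associated microglial state, 8 were among the 61 and all 13 were on the higher side in both old sections, with medians of 0.41 and 0.58. Among the 8, B2m is counted again with the MHC class I genes, and Ctsz and Cd63 with the lysosomal genes, so these lists are not separate. Lyz2, a lysozyme of myeloid cells, was at 12.9, 36.0 and 44.6 CPM, the widest gap of the list. Trem2, a lipid-sensing receptor, was at 17.4, 30.4 and 29.2 CPM, and its signalling adaptor Tyrobp was at 59.4, 97.3 and 93.1. Both stood apart from Y-Ctrl while the old sections were within 5 CPM of each other. Apoe, a lipid carrier that astrocytes also make, was at 1450, 1927 and 2012 CPM. Spp1, the secreted phosphoprotein osteopontin, was at 10.3, 17.2 and 26.9 CPM and sat further apart between the old sections. Of 11 homeostatic microglial genes measured none met the rule, 8 were higher and 2 lower in both old sections, and the medians were 0.14 and 0.16. P2ry12, a receptor for extracellular ADP, was among the lower ones at 31.2, 24.0 and 22.1 CPM, while the chemokine receptor Cx3cr1 was at 13.3, 14.5 and 15.8. Myeloid genes outside the lists, chosen after their values were seen, included the surface glycoprotein Cd52 at 11.6, 24.3 and 24.9 CPM, the pore-forming Mpeg1 at 12.9, 22.1 and 21.4, and the Fc receptor chain Fcer1g at 26.6, 39.9 and 38.8.

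Lysosomal genes leaned the same way with smaller gaps. Of 20 measured, 19 were on the higher side in both old sections, 5 were among the 61, and the medians were 0.23 and 0.37. Ctsd, the aspartic protease cathepsin D, was at 286, 418 and 555 CPM, and Ctsz, a cysteine protease that also counts in the disease-associated list, was at 46.9, 72.6 and 83.2. Ctss, a cysteine protease of antigen-presenting cells, was at 82.5, 112 and 110 CPM. Cd68, a lysosomal membrane glycoprotein of macrophages, was at 7.94, 12.8 and 13.4 CPM. Cd63, a membrane tetraspanin at 104, 136 and 157 CPM, was the last gene inside the 1.3-fold limit with a smaller log2 ratio of 0.38, and Adssl1 at 22.1, 32.9 and 30.2 CPM was the first outside it. After averaging over spot clusters, as described further on, Ctsz was the 1 lysosomal gene still within the rule. The medians of the list were then 0.14 and 0.31.

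**Figure D2:**
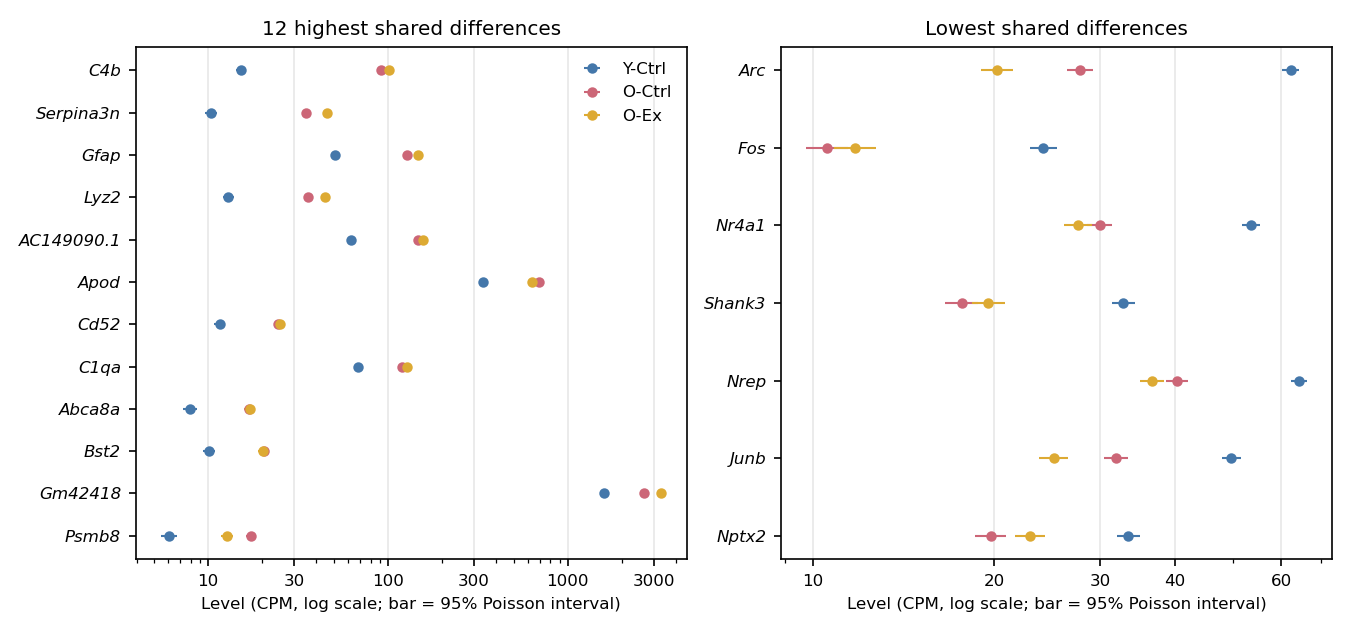
CPM of the 12 highest (left) and 7 lowest (right) genes that also met the rule after averaging over spot clusters, with region markers left out. Each gene has 1 row, for Y-Ctrl, O-Ctrl and O-Ex on logarithmic axes with exact 95% Poisson intervals, which the symbols often hide. Both old sections lie to the right of Y-Ctrl in the left panel and to its left in the right panel.

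Antigen presentation and interferon genes were also on the higher side. Of 7 measured genes of MHC class I and the immunoproteasome, 5 were among the 61, with medians of 0.44 and 0.54. B2m, the light chain of every class I molecule, was at 211, 286 and 291 CPM. The heavy chain gene H2-K1 was at 36.6, 54.3 and 68.7 CPM and H2-D1 at 51.9, 70.6 and 77.9, and since class I heavy chain genes resemble one another their reads may be shared in counting. Tapbp, which loads peptides onto class I, was at 17.4, 27.4 and 28.3 CPM. Psmb8, a subunit of the interferon-inducible proteasome, was at 6.05, 17.4 and 12.8 CPM. Of 13 interferon response genes, 12 were on the higher side in both old sections, but 2 were among the 61. Bst2, the antiviral membrane tether tetherin, was at 10.1, 20.4 and 20.2 CPM, and Ifitm3, a membrane protein that blocks virus entry, was at 29.1, 52.1 and 49.3. The list's median was larger in O-Ctrl than in O-Ex, at 0.63 against 0.43.

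Several interferon genes differed from Y-Ctrl by more than 1.3-fold in both old sections and were left out because the old sections were even further apart. Gbp2, an interferon-induced GTPase, was at 3.42, 32.1 and 7.40 CPM, Ly6a, a surface protein of vessel and blood cells, at 53.4, 131 and 78.6, and AW112010 at 5.97, 20.3 and 10.4. In all 3 it was O-Ctrl that stood out. Among the 12 genes left out in this way, choroid plexus genes had the opposite order. Prlr, the prolactin receptor, was at 8.74, 15.8 and 62.4 CPM, and Folr1, a folate transporter, at 7.09, 11.8 and 46.7. These moved with the summed choroid plexus level given above, and the part that tissue coverage has in them was not tested. No lower gene was left out on this ground.

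Promoter windows were searched because the interferon and class I genes stood together. The sequence bound by interferon-stimulated factors, the ISRE, has a core of GAAA, any 2 bases and GAAA again, the site of STAT dimers (GAS) has TTCNNNGAA, and the cyclic AMP response element (CRE) of activity genes has TGACGTCA. All were searched on both strands in RefSeq windows of GRCm38.p6 from 250 bases before to 50 bases after each gene start, which matched 47 of the 61 higher genes (58 windows) and 40 of the 53 lower ones (54 windows). The 3 windows below show the 250 bases before the start for an interferon gene, the class I light chain and an activity gene, written 5′ to 3′ on the strand of the gene. They come from Bst2 (chr8:71537473-71537722, minus strand), B2m (chr2:122147437-122147686, plus strand) and Dusp1 (chr17:26508473-26508722, minus strand). Capitals mark a GAS that runs into 2 overlapping ISRE cores in Bst2, 1 ISRE core in B2m and 1 CRE in Dusp1.
Bst2: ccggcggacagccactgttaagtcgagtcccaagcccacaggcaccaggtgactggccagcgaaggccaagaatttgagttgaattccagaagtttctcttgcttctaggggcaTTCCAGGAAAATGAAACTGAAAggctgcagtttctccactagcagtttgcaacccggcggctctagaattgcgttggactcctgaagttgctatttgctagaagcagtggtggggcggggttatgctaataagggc
B2m: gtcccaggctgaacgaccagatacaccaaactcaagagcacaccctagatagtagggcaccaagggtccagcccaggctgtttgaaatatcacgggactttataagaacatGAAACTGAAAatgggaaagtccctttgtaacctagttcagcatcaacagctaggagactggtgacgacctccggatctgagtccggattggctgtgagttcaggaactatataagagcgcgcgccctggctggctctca
Dusp1: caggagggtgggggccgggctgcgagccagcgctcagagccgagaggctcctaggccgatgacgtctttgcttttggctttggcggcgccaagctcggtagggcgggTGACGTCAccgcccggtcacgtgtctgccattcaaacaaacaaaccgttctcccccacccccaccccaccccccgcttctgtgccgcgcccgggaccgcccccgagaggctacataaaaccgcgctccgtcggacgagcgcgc

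The ISRE core was found in 5 of the 47 higher genes with windows (10.6%), namely B2m, Bst2, Ctss, Ifitm3 and Spp1, in 1 of the 40 lower ones (2.5%) and in 3.36% of 7107 expressed genes. The GAS letters were in 7 of 47 (14.9%), 1 of 40 and 7.63% of expressed genes, and the 2 motifs overlap in Bst2. The CRE was in none of the 47, in the Dusp1 window alone among the 40, and in 3.84% of expressed genes. A match is a run of letters and not a measured binding site.

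Oligodendrocyte genes gave a mixed picture. Of 20 measured, 2 were among the 61, and 12 were higher and 5 lower in both old sections. The medians were 0.15 and 0.02, or 0.06 and 0.21 after averaging over spot clusters. Apod, a lipocalin of oligodendrocytes and other glia, was at 336, 693 and 633 CPM, and Trf, the iron carrier transferrin, was at 369, 530 and 553. Of the remaining higher genes, Ptgds, the prostaglandin D synthase of meninges and oligodendrocytes, was at 1268, 1775 and 1919 CPM, and the meningeal cluster it leads had 59, 79 and 75 spots. Averaged over spot clusters, Ptgds kept log2 ratios of 0.49 and 0.71, within the rule, and it was higher in both old sections in 11 of 14 clusters. Neat1, a nuclear long noncoding RNA, was at 34.0, 66.8 and 77.5. Neat1 was named after its value was seen. Sspo, a giant secreted protein of the subcommissural organ, was at 0.572, 10.8 and 24.0 CPM and came mostly from the spots led by the choroid plexus gene Ttr, where it was at 1.83, 222 and 251 CPM. How much of this local source each section includes was not tested. Gm42418 at 1585, 2640 and 3305 CPM and AC149090.1 at 62.2, 147 and 156 CPM are uncertain, the former because its sequence overlaps ribosomal RNA and the latter because it lies on an unplaced scaffold.

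**Figure D3:**
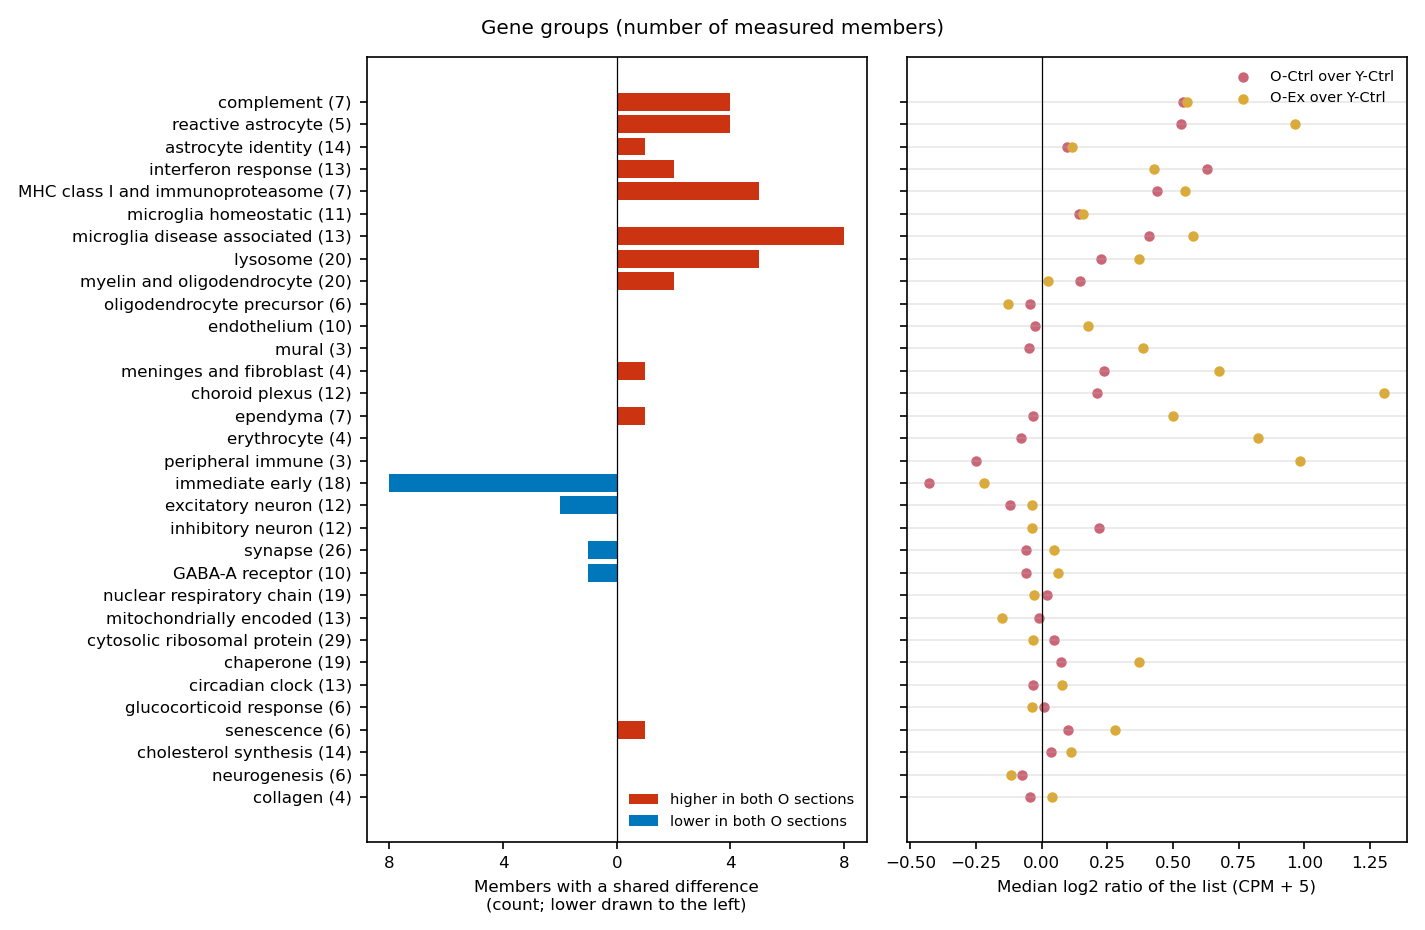
Left, number of genes of each list among the 61 higher (red, drawn to the right of 0) and the 53 lower genes (blue, to the left), with the number measured in parentheses. Right, the list's median log2 ratio to Y-Ctrl for both old sections, where the immediate early list lies below 0 and the choroid plexus list lies far to the right in O-Ex alone.

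Other lists held no chosen gene, which at 1.26% of all genes called says little for lists of their size. These included 19 nuclear respiratory chain genes, 13 mitochondrially encoded genes, 29 ribosomal protein genes, 19 chaperones, 14 cholesterol synthesis genes, 13 clock genes, 12 inhibitory neuron genes, 10 endothelial genes and 6 oligodendrocyte precursor genes. The chaperones were closer to 0 in O-Ctrl than in O-Ex, with medians of 0.07 and 0.37.

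To see where in the tissue the higher genes differed, spots of the 3 sections were clustered together by expression, and 14 of 23 clusters had at least 50 spots in every section. Cluster values come from the same spots as the section sums and are a breakdown of them, not further evidence. The white matter cluster, with the myelin genes Mal and Cldn11 among its leading genes, was the place of the largest smaller ratio for 24 of the 61 genes. There C4b was at 75.0, 655 and 777 CPM, whereas in the cluster of upper cortical layers, led by Lamp5, it was at 2.19, 5.06 and 10.5. Serpina3n was at 10.5, 169 and 229 CPM in white matter and at 4.75, 4.64 and 9.46 in upper layers. Gfap was at 225, 687 and 911 CPM in white matter, but its largest smaller ratio, 1.76, was in the thalamic cluster led by Prkcd, at 10.8, 48.5 and 62.3 CPM. In upper layers its log2 ratios were 0.23 and 0.64. C1qa was at 179, 452 and 463 CPM in white matter and at 58.3, 55.9 and 68.0 in upper layers.

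Of 58 higher genes measured in white matter, 47 had a shared difference within it, against 5.98% of all genes there. The counts were 38 of 55 in the hypothalamic cluster led by Pmch (2.96%), 36 of 50 in the thalamic cluster led by Prkcd (1.7%) and 27 of 46 in the layer 6 cluster led by Ctgf (1.18%). In the upper cortical layers 11 of 41 did (0.74%). The median log2 ratios of the higher genes were 0.82 and 0.94 in white matter and 0.17 and 0.30 in upper layers. These medians cover unequal sets of 58 and 41 genes. The 5 CPM added to each value also shrinks ratios of genes near that level, such as C4b and Serpina3n in upper layers.

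**Figure D4:**
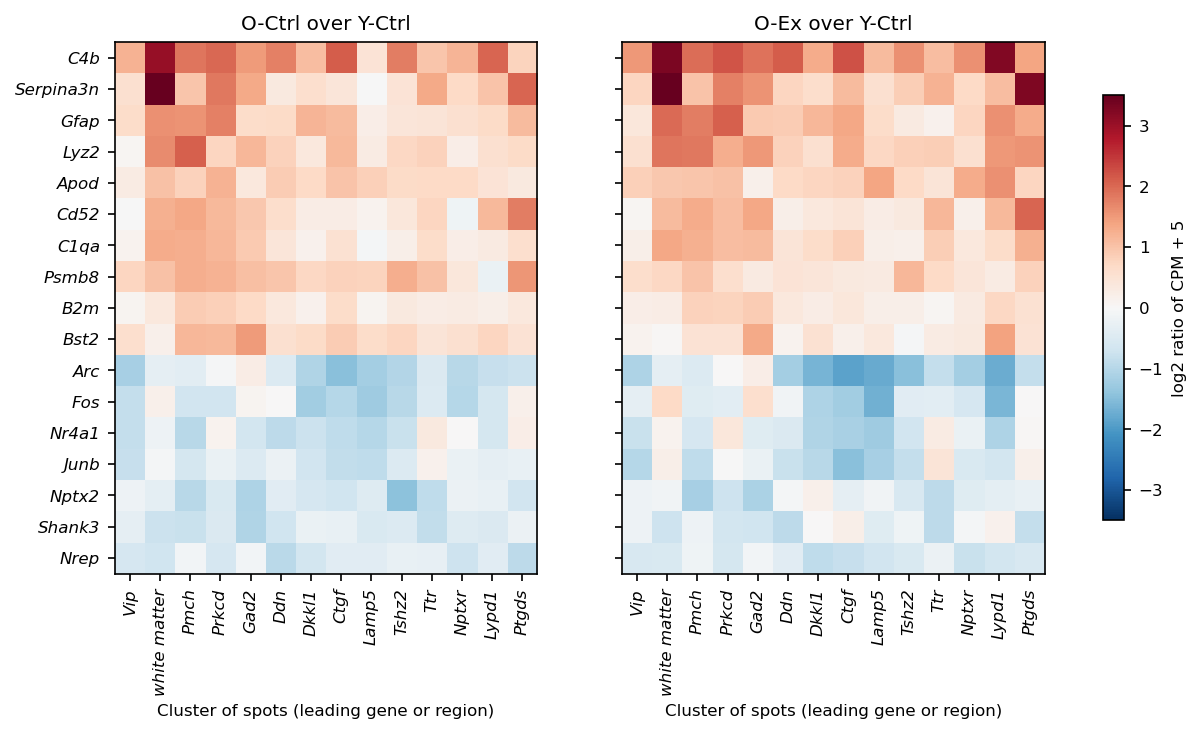
Colour gives the log2 ratio to Y-Ctrl on CPM plus 5, for O-Ctrl (left) and O-Ex (right), of 17 chosen genes (rows) in each of the 14 shared spot clusters (columns, called by their leading gene or, for white matter, by region). In both panels C4b and Serpina3n are deep red in the white matter column, and Arc is blue in the columns Dkkl1, Ctgf and Lamp5 and near white in the Prkcd column.

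When the ratio was averaged over the 14 clusters with equal weight, so that the share of spots in each cluster no longer entered, 41 genes were higher by the same rule (0.455%) and 37 of them were among the 61 (0.411% of all genes met both). All 61 stayed on the higher side. C4b kept log2 ratios of 1.56 and 1.90, Serpina3n 1.08 and 1.37, Gfap 0.90 and 1.09, and Lyz2 0.81 and 1.13. C4b, Gfap, Lyz2 and Apod were higher in both old sections in 14 of 14 clusters. Vim was among those that no longer met the rule, at 0.13 and 0.62.

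Of the 53 lower genes, 50 stayed on the lower side under the same average, but few of them still met the rule. The rule called 13 genes lower after averaging (0.144%), of which 10 were among the 53 (0.111% met both). Markers of single brain regions made up 15 of the 53 (28.3%) and 3 of the 61, against 1.12% of all genes. A thalamic cluster led by Calb2 and Tcf7l2 had 215, 6 and 3 spots, and a habenular cluster led by Gm5741 and Tac2 had 37, 0 and 0. Leaving out the thalamic, habenular and hypothalamic clusters, an alternative added after the data were seen, left 14 lower and 59 higher genes, with 10 of the 53 and 53 of the 61 still called.

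**Figure D5:**
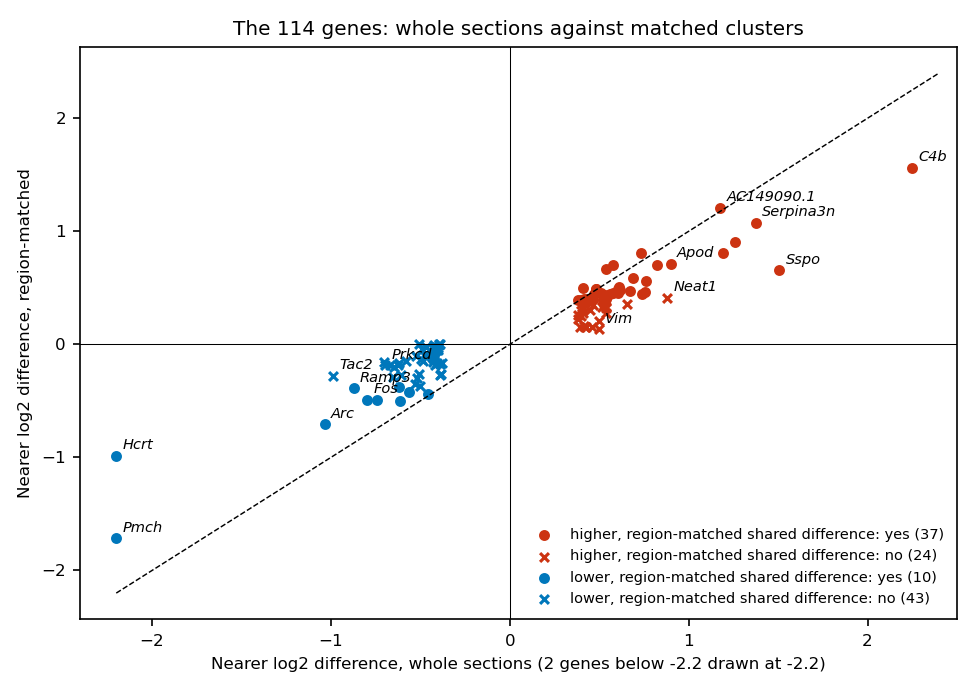
Smaller log2 ratio to Y-Ctrl over whole sections (horizontal axis, with 2 genes drawn at its left limit) and averaged over the 14 shared clusters (vertical axis) for the 114 chosen genes. Filled circles met the rule after averaging and crosses did not, and most of the blue crosses of the lower genes lie nearer to 0 than the dashed line of equality.

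Immediate early genes made up 5 of the 10 lower genes called both ways. Of 18 measured, 8 were among the 53, none was among the 61, and the medians were -0.43 and -0.22. Arc, a synaptic protein whose RNA travels to dendrites (chr15:74669083-74672570, minus strand, mm10), was at 62.3, 27.8 and 20.2 CPM, with log2 ratios of -1.04 and -1.41. Fos, a subunit of the AP-1 transcription factor, was at 24.2, 10.6 and 11.8 CPM. Nr4a1, an orphan nuclear receptor, was at 53.5, 30.0 and 27.6 CPM, and Junb, a partner of Fos, at 49.6, 31.9 and 25.1. Nptx2, a secreted pentraxin that gathers AMPA receptors, was at 33.5, 19.8 and 23.003 CPM. The phosphatase genes Dusp1, at 40.5, 27.1 and 17.8 CPM, and Dusp6, at 44.4, 31.8 and 30.6, and the regulator Ier2, at 17.0, 10.2 and 9.26, completed the 8. Averaged over clusters, Arc kept ratios of -0.71 and -1.01, Fos -0.59 and -0.49, Nr4a1 -0.49 and -0.49, Junb -0.43 and -0.55, and Nptx2 -0.62 and -0.44, all 5 within the rule. Dusp1, Dusp6 and Ier2 did not meet it after averaging.

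The rest of the list did not differ in the same manner, and 7 of the 18 lay on opposite sides in the old sections. Egr1, a zinc finger transcription factor, was at 130, 85.6 and 127 CPM, so O-Ctrl alone was low. Egr3, of the same family, was at 66.3, 47.9 and 66.3 CPM. Homer1, a postsynaptic scaffold, was at 83.7, 72.1 and 98.3 CPM, and there O-Ex lay above Y-Ctrl.

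Arc was lower in both old sections in 12 of 14 clusters and Fos in 10 of 14, with gaps of unequal size. In the upper cortical layers Arc was at 115, 48.1 and 30.4 CPM, and in layer 6 at 138, 47.5 and 34.2. It was at 127, 58.9 and 37.6 CPM in the cluster led by Dkkl1, which the marker rule gave no region. In the thalamic cluster led by Prkcd it was at 9.07, 8.61 and 9.15 CPM. Fos was at 45.3, 16.2 and 10.7 CPM in upper layers and at 6.48, 8.11 and 13.7 in white matter, where the order was turned. Of 20 immediate early genes measured in the upper layers 8 met the rule as lower there, against 0.706% of all genes. In the hypothalamic cluster 3 of 11 did (1.09%), and in the thalamic cluster led by Prkcd 2 of 10 (0.61%). None of 7 did in the choroid plexus cluster (4.95%), which says little for so few genes at that share.

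Synaptic and neuronal lists gave 4 further lower genes, against 0.588% of all genes. Of 26 synapse genes Shank3 alone was among the 53, a postsynaptic scaffold at 32.8, 17.7 and 19.6 CPM, with averaged ratios of -0.55 and -0.38. Nrep, a neuronal protein of regenerating tissue, was at 64.2, 40.3 and 36.6 CPM and was lower in both old sections in 14 of 14 clusters. Gabra4, at 108, 73.2 and 79.2 CPM, was the single member of 10 GABA-A receptor genes, and after averaging its smaller ratio was -0.12. The excitatory genes Rgs4, a brake on G protein signalling at 239, 165 and 165 CPM, and Slc17a6, the vesicular glutamate transporter of the thalamus at 122, 85.3 and 85.7, were the 2 of 12 that met the rule. Slc17a6 is also a thalamic marker, and within the Prkcd cluster it was at 432, 393 and 413 CPM.

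Region markers included the lowest genes, Pmch and Hcrt, followed by Arc. All 12 measured thalamic markers were lower in both old sections and 9 were among the 53, with medians of -0.61 and -0.58. Prkcd, a protein kinase C isoform of thalamic relay neurons, was at 188, 114 and 109 CPM over the sections. Within the cluster it leads, it was at 1562, 1532 and 1502 CPM, and that cluster had 387, 252 and 235 spots. Ramp3, a receptor-modifying protein and thalamic marker, was at 85.2, 44.2 and 40.5 CPM over the sections and at 439, 382 and 380 within that cluster. It still met the rule after averaging, at -0.51 and -0.39, and was lower in both old sections in 10 of 14 clusters, as Prkcd was in 11 of 14. Tac2, a tachykinin of the medial habenula, was at 32.4, 13.9 and 9.58 CPM.

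Of 8 hypothalamic markers measured, 3 were higher, 3 lower and 2 on opposite sides, with medians of 0.19 and -0.12, and Hap1, a huntingtin-associated protein at 41.4, 58.3 and 56.9 CPM, was among the 61. Pmch and Hcrt encode melanin-concentrating hormone and hypocretin, each made by a small group of lateral hypothalamic neurons. Pmch was at 262, 17.8 and 6.04 CPM and Hcrt at 38.9, 1.70 and 0.309, from 2383, 97 and 16 counts. In the hypothalamic cluster Pmch was at 6116, 169 and 57.8 CPM, although that cluster had more spots in the old sections, with 174, 376 and 326. Pmch was also lower outside the hypothalamic cluster, for example at 9.57, 0.309 and 0.190 CPM in the cluster led by Dkkl1, which was given no region. Its averaged ratios of -1.72 and -2.02 include such clusters. Whether the old sections passed through the cell groups that make these peptides was not tested.

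The old sections did not stand equally far from Y-Ctrl. O-Ex was the farther for 45 of the 61 higher and 34 of the 53 lower genes, in sections where the median log2 ratio of O-Ex to O-Ctrl over all genes was 0.06. On this scaling most of the 9013 genes thus lay higher in O-Ex, and their exact share was not counted. At least 1.3-fold higher in O-Ex than in O-Ctrl were 1.91% of all genes, and 0.266% were lower by that much. The counts of members given here are to be read against that lean. All 4 complement and all 4 reactive astrocyte genes among the 61 were higher in O-Ex than in O-Ctrl, as were 6 of 8 disease-associated microglial and 4 of 5 lysosomal genes, while both interferon genes were lower in O-Ex. Under TMM, another scaling of the section totals, that median over all genes was -0.01. The order of genes with small gaps between the old sections, such as C1qc with a log2 ratio of 0.016, therefore depends on the scaling, and these counts were not repeated under TMM. With 1 section per group this order has no replicate error to be set against.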

How the data were processed

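The deposited matrices held raw UMI counts of 31053 genes for the 4992 barcodes of the array in each of 3 sections. Per the file headers the authors produced the count tables in Space Ranger 2.0.0, with mm10 as the genome, per the submitters' processing notes. The molecule label reads nuclear RNA, while the protocol describes whole sections on the array. Images and spot positions were not used here.

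Barcodes with at least 3000 UMIs were kept and their counts summed per section and scaled to CPM. Log2 ratios were taken on CPM plus 5, so differences of genes with low levels are understated. Intervals are exact 95% Poisson intervals and cover counting error only. With 1 section per group no test was run, spots were not treated as replicates and no p-value is given. The spots of the 3 sections were clustered jointly on 2000 variable genes scaled within each section, without genes of the lists that mark no region and without mitochondrial genes, using 30 principal components, a graph of 15 nearest neighbours and the Leiden algorithm at resolution 0.8 (leidenalg 0.10.2, igraph 0.11.9, numpy 2.4.6, scipy 1.17.1). Doublets were not called, because spots hold several cells. A cluster was called by a region when at least 3 fixed markers were among its 30 leading genes, a rule chosen after the clusters were seen, and some clusters mix regions. Gene coordinates came from GENCODE M21. The script was tested on simulated data.

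Genes named were the 12 highest and 12 lowest that met the rule over whole sections and after averaging over clusters, without region markers (7 lower genes qualified), the 5 highest and 5 lowest whatever their list, the 2 most abundant and 2 most different measured genes of each of 34 lists, the 2 most abundant of each of 18 region lists, and 5 genes with opposite differences. Other genes were named as members of the lists or, where so stated, after their values were seen, and they serve as description. The members, lists and the rule were chosen with earlier results of these data known. Of the listed symbols 1 was not matched, and 1 gene is not reported here. Alternatives changed the pseudocount, the barcode minimum, the CPM minimum, the scaling (edgeR 4.0.16), the fold, the clustering and the clusters included.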

Additional observations from a re-analysis of the deposited data

How the results depend on the processing

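The count of higher genes stayed between 54 and 90 and that of lower genes between 51 and 65 under a pseudocount of 1 CPM, 3 other barcode minimums, TMM and median-of-ratios scaling and a total without mitochondrial genes. TMM gave 56 higher and 61 lower genes, and of the 114 genes 105 were called under it. A minimum mean of 2 CPM gave 93 higher genes, no minimum gave 95, a minimum of 50 CPM gave 28 higher and 17 lower, and a limit of 1.5-fold gave 20 higher (0.222%) and 17 lower (0.189%). Averaging over clusters gave 13 lower genes, pooling the spots of shared clusters 31, and leaving out the thalamic, habenular and hypothalamic clusters 14. Other clusterings gave 41 to 46 higher and 13 to 17 lower genes after averaging. Without the Ttr cluster the median log2 ratio of ependymal genes in O-Ex was -0.0382 in place of 0.50, and without the thalamic, habenular and hypothalamic clusters the smaller ratio of Slc17a6 was 0.0140 in place of -0.49. Leaving out the Ttr cluster gave 64 higher and 45 lower genes, and leaving out the cluster of lowest depth in O-Ex gave 62 and 60. These 3 settings that leave out clusters were added after the data were seen. No paired analysis was possible because each group has 1 section and the labels give no replicate numbers. No replicate could be left out for the same reason. Depth limits Hcrt and Sspo most, with 16 and 35 counts in their lowest section.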

Other observations

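Genes with a mean between 2 and 10 CPM, below the limit used in the report, held 32 higher (0.863%) and 14 lower (0.378%) genes by the same rule, chosen after the data were seen. Several are markers of strongly reactive glia. Lcn2, a secreted iron-siderophore binder of reactive astrocytes, was at 0.507, 5.58 and 4.45 CPM in Y-Ctrl, O-Ctrl and O-Ex. Cst7, a cystatin of disease-associated microglia, was at 0.360, 3.58 and 3.41 CPM, and Lgals3, a galectin of activated microglia, at 2.63, 7.23 and 10.6. C3, the central complement protein, was at 0.915, 3.88 and 7.48 CPM. The class II chains H2-Aa, at 2.37, 7.21 and 11.8 CPM, and H2-Ab1, at 2.4025, 6.93 and 11.2, and the chemokine Cxcl10, at 0.539, 3.47 and 2.64, were also higher in both old sections.

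On the lower side were Npas4, an activity-dependent transcription factor with log2 ratios of -0.63 and -0.49, and Btg2, an early response gene at 11.9, 6.88 and 6.96 CPM. Gpr17, a receptor of newly forming oligodendrocytes, was at 13.3, 6.40 and 6.25 CPM, with ratios averaged over clusters of -0.61 and -0.58. Gkn3, known from arterial endothelium, was at 5.67, 2.32 and 3.05 CPM, with averaged ratios of -0.64 and -0.55. Gm5741, which leads the habenular cluster found in Y-Ctrl alone, was at 19.8, 0.0877 and 0.0578 CPM.

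Genes on opposite sides of Y-Ctrl in the old sections were led by Eef1a2, a neuronal translation elongation factor at 182, 137 and 262 CPM, and by the immunoglobulin light chain Igkc at 2.27, 0.719 and 48.5 CPM.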
